A study of Caenorhabditis elegans with 4 samples.

Results

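The genes described here are C. elegans genes that carry only a sequence name in the deposited tables, that had higher RNA levels in hypoxia under both RNAi foods, and that differed little between the foods. They were chosen by their measured levels in all 4 libraries of the study, by 4 limits. The deposited name had to be a sequence name, such as C07G1.7, for a locus of 1 gene. The mean level over the 4 libraries had to be at least 5 RPKM (reads scaled to transcript length in kilobases and to the library's mapped reads). The log2 ratio of (RPKM + 1), hypoxia over normoxia, had to be at least 1 under each food, and the same ratio between the foods, labelled elt-2 RNAi over control RNAi, had to lie between -0.8 and 0.8 at each oxygen level. The names F22B5.4, T05D4.1, F58E6.7, T12G3.1 and Y38E10A.15 were left out by the rule, and 2 of these 5 met its numeric limits. This gave 159 members, of 4490 loci with a sequence name and 8008 loci in all that could be compared, among 19852 loci in each table. The members have 158 names, since ZC262.5 stands at 2 loci.

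The study took adult wild-type N2 worms, kept at 20 °C, and exposed them from day 1 of adulthood for 36 h. The 4 groups were labelled elt-2 RNAi in hypoxia, labelled elt-2 RNAi in normoxia, control RNAi in hypoxia and control RNAi in normoxia. Hypoxia was 0.5% oxygen with the balance nitrogen, and control RNAi was bacteria with an empty vector. Each group had 1 library of whole-animal RNA, so no value has a replicate error, no difference has a replicate check, and no test was made. RNAi by feeding uses bacteria that make double-stranded RNA of a target gene, and in wild-type worms it is known to act weakly in neurons. The sources used here do not give how many animals were pooled or when RNAi feeding began. In bulk RNA, a change in the number of cells of a type and a change in RNA per cell cannot be told apart.

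The targeted gene, elt-2, encodes a GATA factor that drives intestinal genes. It was at 23.8 (labelled elt-2 RNAi) and 15.2 RPKM (control RNAi) in hypoxia, against 14.3 (labelled elt-2 RNAi) and 4.81 RPKM (control RNAi) in normoxia. Its level was higher, not lower, in both libraries labelled elt-2 RNAi. That value alone goes against the label, and these libraries are named by their label throughout. Whether reads of the fed double-stranded RNA count towards it was not tested. Of 8 intestinal marker genes, 5 were lower in labelled elt-2 RNAi than in control RNAi in hypoxia and 6 in normoxia. Among the lower ones, asp-1, an aspartic protease, was at 475 (labelled elt-2 RNAi) and 1767 RPKM (control RNAi) in hypoxia. In normoxia asp-1 was at 360.5 (labelled elt-2 RNAi) and 759.6 RPKM (control RNAi). Higher under labelled elt-2 RNAi were ifb-2, act-5 and pept-1 in hypoxia, and ifb-2 and elt-7 in normoxia. In hypoxia ifb-2 was at 231 (labelled elt-2 RNAi) and 101 RPKM (control RNAi). How many of all compared loci were lower under labelled elt-2 RNAi was not counted, so the marker counts have no background. A small RNAi ratio of a member is therefore a small difference between 2 labelled foods, and is not shown to be a response to a loss of elt-2. The value of 1 read was estimated relative to control RNAi in normoxia, from loci under 0.3 RPKM and a search within 2-fold. It was 0.874 in labelled elt-2 RNAi hypoxia, 1.09 in labelled elt-2 RNAi normoxia and 0.997 in control RNAi hypoxia. The loci that fell within the step were 52 of 1916, 173 of 2007 and 85 of 1764, in the same order. Most loci thus lay off the step, and only the 2-fold range was searched, so these values cannot show that depth was similar. The sources used here give no absolute depth. Between 10462 and 11048 loci were at 1 RPKM or more in each library.

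A sequence name in C. elegans records the cosmid or other clone on which a gene was found and its number on that clone. A gene receives a descriptive name when its family, mutant or homologue becomes known, so a set of genes with sequence names is a set about which little was recorded when the annotation was made. Worms meet low oxygen in part through HIF-1, a transcription factor that the prolyl hydroxylase EGL-9 marks for breakdown when oxygen is present. Many targets of HIF-1 carry descriptive names and so lie outside the genes described here. The current name tables of the WBcel235 assembly gave a descriptive symbol to 47 of the 159 members, and 112 still have only a sequence name. By the current gene models 156 members are protein coding, 1 is a long intergenic non-coding RNA (H36L18.2, now lep-5), 1 is a pseudogene (Y113G7B.14), and 1 had no model (Y48G1BL.6).

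The rule fixed the direction of every member, so the ratios below describe the set and support nothing. The median log2 hypoxia ratio of the members was 1.499 under labelled elt-2 RNAi and 1.40 under control RNAi, against -0.06 under each food over all 8008 compared loci. The ratios spanned 1.01 to 4.099 under labelled elt-2 RNAi and 1.00 to 3.77 under control RNAi. At least 2-fold higher levels in hypoxia were found in 9.1% of compared loci under labelled elt-2 RNAi and in 8.18% under control RNAi. All the numeric limits together were met by 3.65% of compared loci, whatever their name. They were met by 3.54% of the compared loci with a sequence name and by 3.73% of the 3513 with a descriptive name, so both kinds of gene met the limits at about the same rate.

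**Figure D1:**
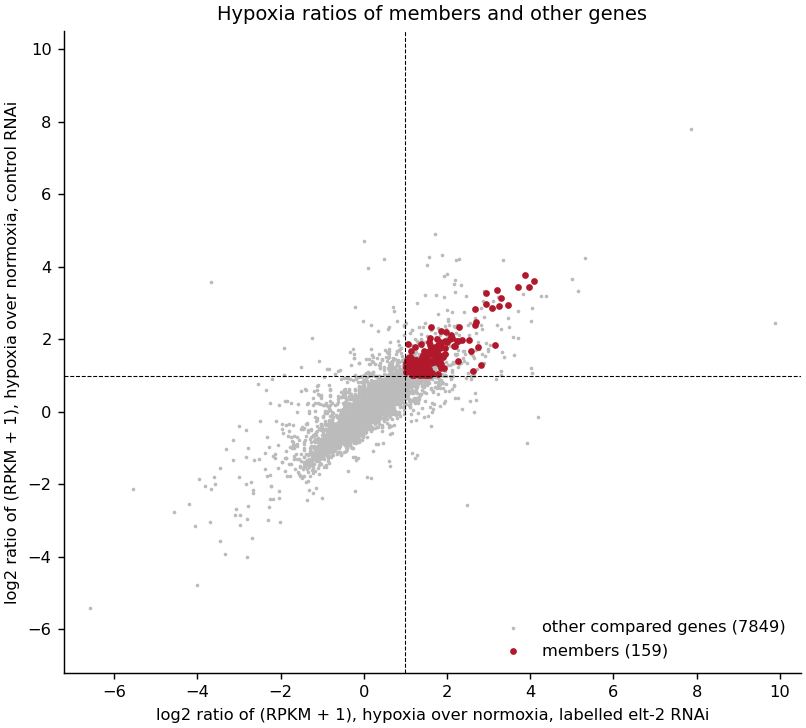
Log2 ratio of (RPKM + 1), hypoxia over normoxia, under labelled elt-2 RNAi (horizontal) and control RNAi (vertical), for the 159 members and the other 7849 compared loci, with dashed lines at 1. The members lie by the rule above and right of both lines, most of them near the corner, and 6 lie at 3 or more on both axes.

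Most members lay near the limit of the rule. Both ratios were under 2 in 124 members, which is less than 4-fold, while under both foods 17 members reached 4-fold and 6 reached 8-fold. The median member was at 30.2 RPKM in labelled elt-2 RNAi hypoxia and 10.04 RPKM in labelled elt-2 RNAi normoxia, and at 32.0 RPKM in control RNAi hypoxia and 9.99 RPKM in control RNAi normoxia. Mean levels over the 4 libraries ran over a wide range, with a median of 20.3 RPKM and limits of 5.01 and 2849 RPKM. The median of all compared loci was higher, at 42.6 RPKM. Both hypoxia values reached 10 RPKM in 138 members, 100 RPKM in 42 and 1000 RPKM in 4. In 5 members both normoxia values were under 1 RPKM, so that nearly all of their RNA in these libraries came from the hypoxia samples.

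Several of the highest ratios belonged to genes that were nearly silent in normoxia. The gene with the highest mean of the 2 ratios, C07G1.7 (chromosome IV, 8210940 to 8211814, minus strand), was at 18.7 (labelled elt-2 RNAi) and 11.2 RPKM (control RNAi) in hypoxia, against 0.152 (labelled elt-2 RNAi) and 0 RPKM (control RNAi) in normoxia. It was listed at 0 in control RNAi normoxia, so no fold is given for that food. Its coding sequence of 615 bases is spread over 5 exons. The second, C36C5.12 (chromosome V, 3158447 to 3159418, minus strand), was at 18.995 (labelled elt-2 RNAi) and 17.3 RPKM (control RNAi) in hypoxia, against 0.367 (labelled elt-2 RNAi) and 0.338 RPKM (control RNAi) in normoxia. Its log2 ratios were 3.87 (labelled elt-2 RNAi) and 3.77 (control RNAi), and the values of the foods lay close together at each oxygen level. Y54G2A.32 (chromosome IV, 2803587 to 2804784, plus strand) was at 31.7 (labelled elt-2 RNAi) and 20.1 RPKM (control RNAi) in hypoxia, against 1.07 (labelled elt-2 RNAi) and 0.933 RPKM (control RNAi) in normoxia. For this gene the hypoxia value under labelled elt-2 RNAi was the higher of the pair, and its log2 ratios were 3.98 (labelled elt-2 RNAi) and 3.45 (control RNAi).

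C37C3.10 was at 20.5 (labelled elt-2 RNAi) and 18.1 RPKM (control RNAi) in hypoxia, against 0.649 (labelled elt-2 RNAi) and 0.757 RPKM (control RNAi) in normoxia. Both of its normoxia values were under 1 RPKM, and its log2 ratios were 3.70 (labelled elt-2 RNAi) and 3.44 (control RNAi). Y66C5A.1 was at 10.99 (labelled elt-2 RNAi) and 8.63 RPKM (control RNAi) in hypoxia, against 0.562 (labelled elt-2 RNAi) and 0 RPKM (control RNAi) in normoxia, again with a listed 0 in control RNAi normoxia and therefore with no fold there. Y102A11A.5, the last of the 5 members under 1 RPKM in both normoxia libraries, was at 11.5 (labelled elt-2 RNAi) and 12.7 RPKM (control RNAi) in hypoxia, against 0.634 (labelled elt-2 RNAi) and 0.751 RPKM (control RNAi) in normoxia. Their coding lengths are 615 bases (C07G1.7), 606 bases (C36C5.12), 369 bases (C37C3.10), 219 bases (Y66C5A.1) and 396 bases (Y102A11A.5). None of these 5 has a descriptive current symbol.

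Other members with high ratios started from a clear level in normoxia. F53A9.1 (chromosome X, 8711543 to 8711776, plus strand), a gene of 1 exon with 231 coding bases, was at 1361 (labelled elt-2 RNAi) and 915 RPKM (control RNAi) in hypoxia, against 137 (labelled elt-2 RNAi) and 102 RPKM (control RNAi) in normoxia. Its level was higher in hypoxia by 9.95-fold under labelled elt-2 RNAi and 8.97-fold under control RNAi, and it is the member that stands among the 10 highest both by ratio and by level. M02D8.6, now nssp-85, was at 144 (labelled elt-2 RNAi) and 133 RPKM (control RNAi) in hypoxia, against 12.1 (labelled elt-2 RNAi) and 16.4 RPKM (control RNAi) in normoxia. K01A12.4 was at 150.4 (labelled elt-2 RNAi) and 134 RPKM (control RNAi) in hypoxia, against 14.99 (labelled elt-2 RNAi) and 16.9 RPKM (control RNAi) in normoxia. These 2 genes, both on the X chromosome and both with 351 coding bases in 2 exons, had much the same level in each library. Their sequences were not compared here, so whether reads could be shared between them is uncertain. Y54G2A.52 was at 97.8 (labelled elt-2 RNAi) and 99.4 RPKM (control RNAi) in hypoxia, against 10.7 (labelled elt-2 RNAi) and 12.7 RPKM (control RNAi) in normoxia, and the foods differed by no more than a few RPKM at either oxygen level.

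B0238.12, now spi-2, a serine protease inhibitor, was at 35.0 (labelled elt-2 RNAi) and 30.3 RPKM (control RNAi) in hypoxia, against 2.88 (labelled elt-2 RNAi) and 2.03 RPKM (control RNAi) in normoxia. It was higher in hypoxia by 12.1-fold under labelled elt-2 RNAi and 15-fold under control RNAi, and each hypoxia value lay far above each normoxia value. Y22D7AL.15 was at 287 (labelled elt-2 RNAi) and 336 RPKM (control RNAi) in hypoxia, against 43.9 (labelled elt-2 RNAi) and 45.8 RPKM (control RNAi) in normoxia, with log2 ratios of 2.68 (labelled elt-2 RNAi) and 2.85 (control RNAi). C32F10.4 was at 105 (labelled elt-2 RNAi) and 116 RPKM (control RNAi) in hypoxia, against 15.6 (labelled elt-2 RNAi) and 21.4 RPKM (control RNAi) in normoxia, with log2 ratios of 2.68 (labelled elt-2 RNAi) and 2.39 (control RNAi). For both, each hypoxia library was several times above each normoxia library, and labelled elt-2 RNAi was the lower food in hypoxia and in normoxia.

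**Figure D2:**
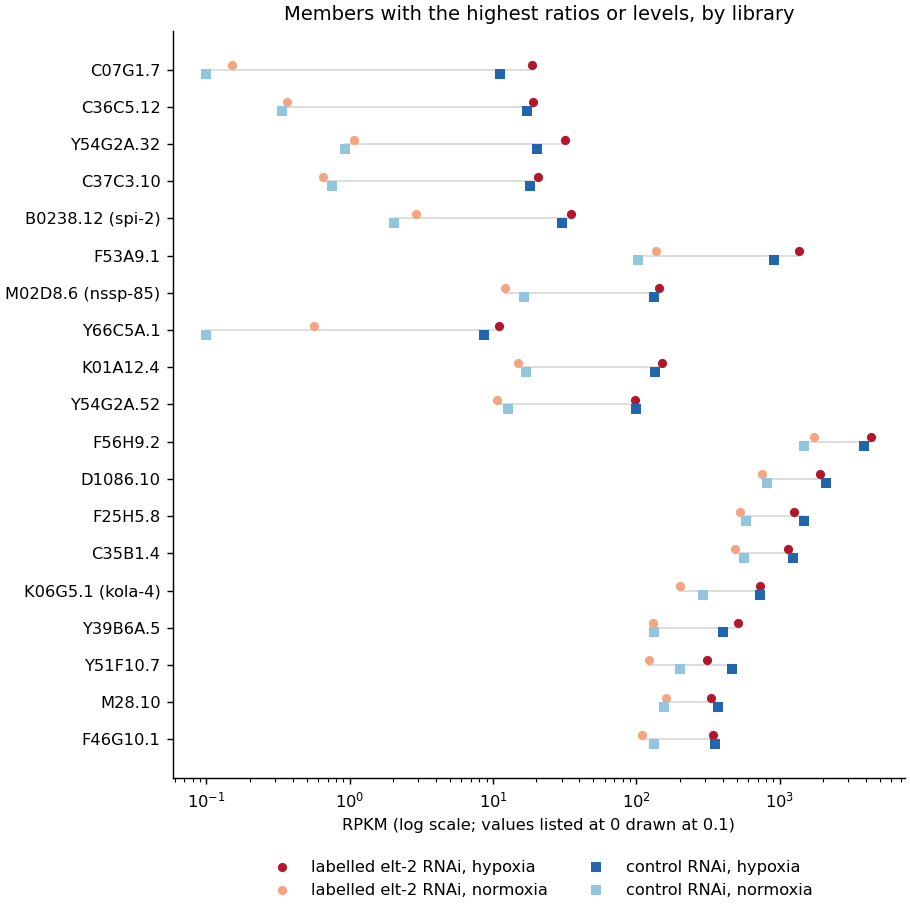
RPKM on a log scale in the 4 libraries (colours, with hypoxia darker) for the 10 members with the highest mean hypoxia ratio, from C07G1.7 down, and the 10 with the highest mean level, which share F53A9.1. Levels listed at 0, for C07G1.7 and Y66C5A.1 in control RNAi normoxia, are drawn at 0.1, and each hypoxia point lies right of each normoxia point of the same gene.

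The most abundant members had modest ratios. F56H9.2, with 171 coding bases, was at 4346 (labelled elt-2 RNAi) and 3842 RPKM (control RNAi) in hypoxia, against 1728 (labelled elt-2 RNAi) and 1478 RPKM (control RNAi) in normoxia. D1086.10 was at 1918 (labelled elt-2 RNAi) and 2084 RPKM (control RNAi) in hypoxia, against 753 (labelled elt-2 RNAi) and 816 RPKM (control RNAi) in normoxia. F25H5.8 was at 1259 (labelled elt-2 RNAi) and 1463 RPKM (control RNAi) in hypoxia, against 525 (labelled elt-2 RNAi) and 579.7 RPKM (control RNAi) in normoxia. In these 3 genes each hypoxia library was between 2 and 3 times its normoxia library. C35B1.4, a gene of 1 exon, was at 1137 (labelled elt-2 RNAi) and 1236 RPKM (control RNAi) in hypoxia, against 490.0 (labelled elt-2 RNAi) and 559.6 RPKM (control RNAi) in normoxia. Together with F56H9.2, D1086.10 and F25H5.8 it is one of the 4 members above 1000 RPKM in both hypoxia libraries, and all 4 lack a descriptive current symbol. The others among the 10 with the highest level had log2 ratios of 1.96 (labelled elt-2 RNAi) and 1.59 (control RNAi) for Y39B6A.5, 1.86 (labelled elt-2 RNAi) and 1.32 (control RNAi) for K06G5.1 (now kola-4), 1.35 (labelled elt-2 RNAi) and 1.19 (control RNAi) for Y51F10.7, 1.02 (labelled elt-2 RNAi) and 1.23 (control RNAi) for M28.10 and 1.62 (labelled elt-2 RNAi) and 1.40 (control RNAi) for F46G10.1. Y51F10.7 was at 313 (labelled elt-2 RNAi) and 463 RPKM (control RNAi) in hypoxia, against 122 (labelled elt-2 RNAi) and 202 RPKM (control RNAi) in normoxia, so the control food was the higher at both oxygen levels.

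Among the 47 members that now have a symbol, 8 act on transcription, chromatin or RNA, by knowledge of the genes or of their homologues. The 3 bZIP transcription factors were zip-10 (T27F2.4), known for a part in death after cold shock, zip-12 (Y75B8A.29) and cebp-1 (D1005.3), a C/EBP-like factor known from axon regrowth. zip-10 was at 54.1 (labelled elt-2 RNAi) and 51.5 RPKM (control RNAi) in hypoxia, against 13.9 (labelled elt-2 RNAi) and 17.0 RPKM (control RNAi) in normoxia. cebp-1 was at 33.8 (labelled elt-2 RNAi) and 24.0 RPKM (control RNAi) in hypoxia, against 11.8 (labelled elt-2 RNAi) and 11.4 RPKM (control RNAi) in normoxia. zip-12 was at 26.9 (labelled elt-2 RNAi) and 35.2 RPKM (control RNAi) in hypoxia, against 8.98 (labelled elt-2 RNAi) and 14.1 RPKM (control RNAi) in normoxia. The foods lay close together for zip-10, while cebp-1 was higher under labelled elt-2 RNAi in hypoxia and its control ratio of 1.01 stood at the edge of the rule. The genes cbp-2 (K03H1.10) and cbp-3 (F40F12.7), related to the CBP/p300 family of acetyltransferases, lie near each other on chromosome III. cbp-2 was at 24.9 (labelled elt-2 RNAi) and 24.9 RPKM (control RNAi) in hypoxia, against 4.67 (labelled elt-2 RNAi) and 6.37 RPKM (control RNAi) in normoxia. cbp-3 was at 58.4 (labelled elt-2 RNAi) and 66.4 RPKM (control RNAi) in hypoxia, against 18.2 (labelled elt-2 RNAi) and 21.2 RPKM (control RNAi) in normoxia. Both were higher in each hypoxia library than in each normoxia library, cbp-3 at the higher level throughout. nmad-1 (F09F7.7), an AlkB-family protein known as a DNA N6-methyladenine demethylase, was at 93.7 (labelled elt-2 RNAi) and 83.8 RPKM (control RNAi) in hypoxia, against 25.7 (labelled elt-2 RNAi) and 21.5 RPKM (control RNAi) in normoxia. lep-5 (H36L18.2), a non-coding RNA of developmental timing, was at 170.5 (labelled elt-2 RNAi) and 213 RPKM (control RNAi) in hypoxia, against 46.1 (labelled elt-2 RNAi) and 55.96 RPKM (control RNAi) in normoxia. lep-5 was the only long non-coding RNA by annotation among the members, at a level above most of them. rege-1 (C30F12.1), the homologue of the RNase Regnase-1, had log2 ratios of 1.04 (labelled elt-2 RNAi) and 1.42 (control RNAi).

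Among secreted peptides and secretion genes were the neuropeptide-like genes nlp-99 (T05A8.3), nlp-56 (Y57G11C.45) and nlp-61 (F26A10.1). nlp-99 was at 137 (labelled elt-2 RNAi) and 170.1 RPKM (control RNAi) in hypoxia, against 39.3 (labelled elt-2 RNAi) and 46.8 RPKM (control RNAi) in normoxia. nlp-56 was at 85.03 (labelled elt-2 RNAi) and 81.9 RPKM (control RNAi) in hypoxia, against 27.01 (labelled elt-2 RNAi) and 31.5 RPKM (control RNAi) in normoxia. nlp-61 was at 88.0 (labelled elt-2 RNAi) and 97.8 RPKM (control RNAi) in hypoxia, against 40.0 (labelled elt-2 RNAi) and 33.8 RPKM (control RNAi) in normoxia. All 3 had hypoxia values of more than 80 RPKM under each food, and none of their normoxia values reached the lowest hypoxia value of the same gene. serp-1.1 (F59F4.2), a homologue of SERP1/RAMP4 of the endoplasmic reticulum, was at 185 (labelled elt-2 RNAi) and 118 RPKM (control RNAi) in hypoxia, against 40.7 (labelled elt-2 RNAi) and 33.1 RPKM (control RNAi) in normoxia, higher under labelled elt-2 RNAi at both oxygen levels. Together with spi-2, these 5 genes had median log2 ratios of 1.78 (labelled elt-2 RNAi) and 1.81 (control RNAi), against 1.499 (labelled elt-2 RNAi) and 1.40 (control RNAi) over all members.

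Enzymes of lipids and of cofactors numbered 7. ttm-5 (Y54E5A.1), a homologue of sphingolipid desaturases, was at 19.1 (labelled elt-2 RNAi) and 21.5 RPKM (control RNAi) in hypoxia, against 4.23 (labelled elt-2 RNAi) and 5.62 RPKM (control RNAi) in normoxia. fard-1 (Y71H10A.2), a fatty acyl-CoA reductase, was at 36.2 (labelled elt-2 RNAi) and 61.7 RPKM (control RNAi) in hypoxia, against 14.4 (labelled elt-2 RNAi) and 23.1 RPKM (control RNAi) in normoxia. tmem-189 (Y53C10A.5), the homologue of the plasmanylethanolamine desaturase of plasmalogen synthesis, was at 21.8 (labelled elt-2 RNAi) and 36.4 RPKM (control RNAi) in hypoxia, against 9.19 (labelled elt-2 RNAi) and 14.05 RPKM (control RNAi) in normoxia. For fard-1 and tmem-189 the levels under labelled elt-2 RNAi were the lower at both oxygen levels, and their RNAi ratios lay near the lower end of the window. The carboxylesterase gene cest-25 (Y71H2AM.13) showed the same order, at 28.5 (labelled elt-2 RNAi) and 47.4 RPKM (control RNAi) in hypoxia, against 11.1 (labelled elt-2 RNAi) and 19.2 RPKM (control RNAi) in normoxia. The acyl-CoA synthetase gene acs-7 (C01G6.7) had log2 ratios of 1.13 (labelled elt-2 RNAi) and 1.68 (control RNAi), and the membrane-bound O-acyltransferase gene mboa-3 (C54G7.2) of 1.27 (labelled elt-2 RNAi) and 1.31 (control RNAi). nadk-1 (Y77E11A.2), an NAD kinase, was at 20.0 (labelled elt-2 RNAi) and 21.7 RPKM (control RNAi) in hypoxia, against 8.69 (labelled elt-2 RNAi) and 9.46 RPKM (control RNAi) in normoxia. Its ratios of 1.11 (labelled elt-2 RNAi) and 1.12 (control RNAi) differed the least between the foods of any member. The 7 enzymes had median log2 ratios of 1.27 (labelled elt-2 RNAi) and 1.31 (control RNAi), a little below the medians of all members.

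Transport and membrane genes numbered 7. The phosphate transporter gene pitr-3 (B0222.3) had log2 ratios of 1.91 (labelled elt-2 RNAi) and 1.52 (control RNAi), and the solute carrier gene slc-17.4 (T28F3.4) of 1.42 (labelled elt-2 RNAi) and 1.56 (control RNAi). klo-1 (C50F7.10), a Klotho homologue, was at 20.8 (labelled elt-2 RNAi) and 24.6 RPKM (control RNAi) in hypoxia, against 6.202 (labelled elt-2 RNAi) and 5.19 RPKM (control RNAi) in normoxia. Its log2 ratio was the higher under control RNAi, at 2.05, against 1.60 under labelled elt-2 RNAi. crb-3 (C35B8.4), a homologue of the polarity protein Crumbs, had ratios of 1.32 (labelled elt-2 RNAi) and 1.16 (control RNAi), tpra-1 (D1046.5) of 1.58 (labelled elt-2 RNAi) and 1.70 (control RNAi), cup-16 (C34C6.7), named for coelomocyte uptake, of 1.27 (labelled elt-2 RNAi) and 1.33 (control RNAi), and lron-7 (K03A1.2), a protein of leucine-rich repeats, of 1.22 (labelled elt-2 RNAi) and 1.01 (control RNAi). The contractile genes were mlc-7 (K08E3.10), a myosin light chain, and clik-1 (T25F10.6), a calponin-like protein. mlc-7 was at 123 (labelled elt-2 RNAi) and 120.0 RPKM (control RNAi) in hypoxia, against 41.2 (labelled elt-2 RNAi) and 44.3 RPKM (control RNAi) in normoxia. clik-1 was at 187 (labelled elt-2 RNAi) and 192 RPKM (control RNAi) in hypoxia, against 83.4 (labelled elt-2 RNAi) and 94.0 RPKM (control RNAi) in normoxia. Both stood at about the same level under each food.

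Several further symbols give a family only. nspe-1 (Y38E10A.13), of group E of the nematode-specific peptides, was at 54.8 (labelled elt-2 RNAi) and 57.7 RPKM (control RNAi) in hypoxia, against 7.67 (labelled elt-2 RNAi) and 9.65 RPKM (control RNAi) in normoxia. One of the names left out by the rule, Y38E10A.15, is now nspe-7 and belongs to the same group. Log2 ratios were 1.25 (labelled elt-2 RNAi) and 1.44 (control RNAi) for nssp-41 (Y43B11AR.1), 1.07 (labelled elt-2 RNAi) and 1.88 (control RNAi) for nssp-81 (C39D10.2), 1.51 (labelled elt-2 RNAi) and 1.01 (control RNAi) for pals-23 (C29F9.3) and 1.78 (labelled elt-2 RNAi) and 1.44 (control RNAi) for the arrestin-domain gene arrd-7 (Y17G7B.11). They were 1.57 (labelled elt-2 RNAi) and 1.93 (control RNAi) for ndrr-2 (ZK1073.1) of the NDRG family, 1.31 (labelled elt-2 RNAi) and 1.28 (control RNAi) for faxc-1 (Y57A10A.26), a homologue of failed axon connections, and 1.82 (labelled elt-2 RNAi) and 1.56 (control RNAi) for lst-5 (C52E12.6), named as a target of lateral signalling. The remaining symbols come without a role here. exc-13 (C03G6.5) had log2 ratios of 2.28 (labelled elt-2 RNAi) and 2.35 (control RNAi), spig-16 (F35C5.12) of 1.96 (labelled elt-2 RNAi) and 1.94 (control RNAi), vrp-1 (Y54G2A.3) of 1.64 (labelled elt-2 RNAi) and 1.06 (control RNAi), let-522 (M05B5.2) of 1.14 (labelled elt-2 RNAi) and 1.48 (control RNAi) and mab-31 (Y54E10A.16) of 1.30 (labelled elt-2 RNAi) and 1.25 (control RNAi). Of these, exc-13 and spig-16 had nearly equal values under both foods.

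**Figure D3:**
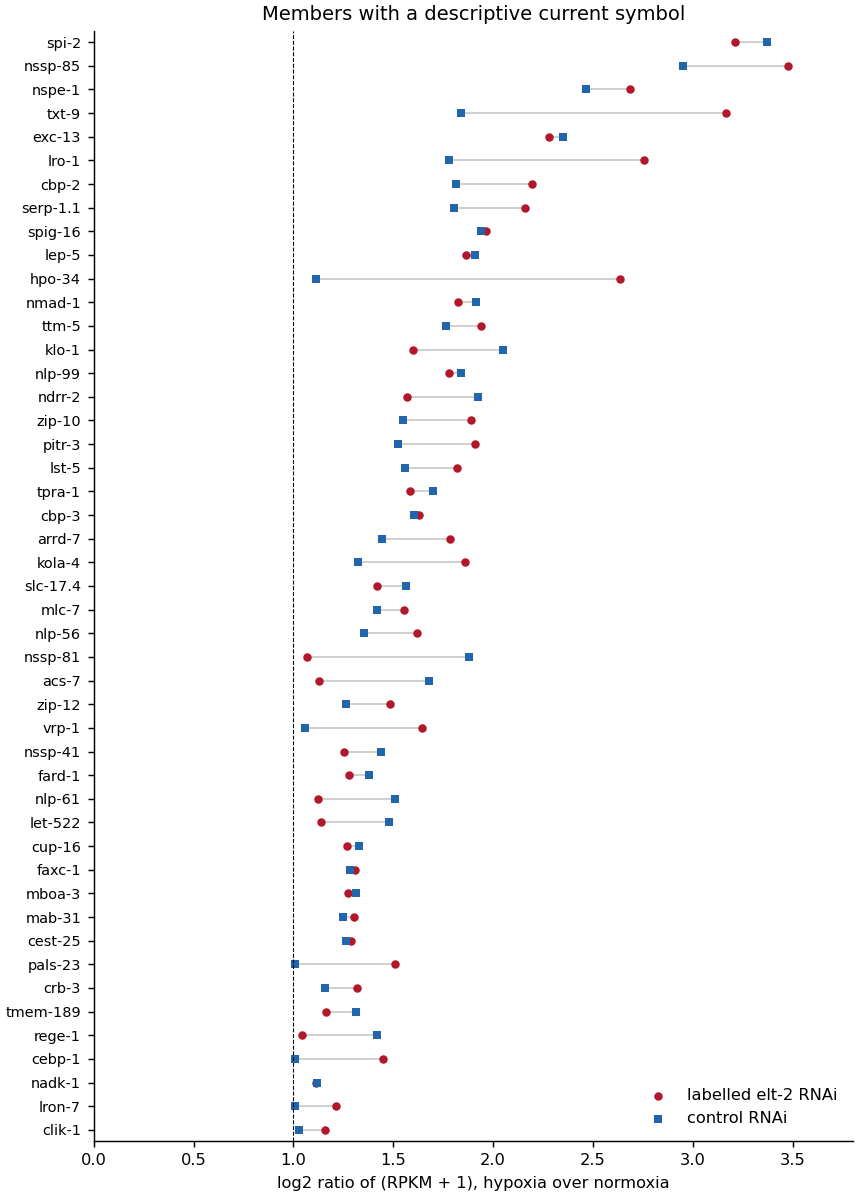
Log2 ratio of (RPKM + 1), hypoxia over normoxia, for the 47 members with a descriptive current symbol, under labelled elt-2 RNAi (circles) and control RNAi (squares), ordered by the mean of the pair, with a dashed line at 1. Most pairs lie close together, and hpo-34, txt-9 and lro-1 show the widest gaps, each with the circle at the higher ratio.

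The rule set no limit on how far the 2 hypoxia ratios of a gene could differ, except through the RNAi window. That difference equals the difference of the 2 RNAi ratios, so the window itself limits it. The counts that follow were not made over all compared loci and describe the members only. The 2 hypoxia ratios differed by less than 0.5 on the log2 scale in 137 members. The ratio was the higher under labelled elt-2 RNAi in 92 members and under control RNAi in 67. The difference was 0.5 or more towards labelled elt-2 RNAi in 18 members and towards control RNAi in 4. Its median was 0.05 over the members, 0.08 over genes with a descriptive name that met the same limits and 0.02 over all compared loci. The difference was 1 or more in 3 members, all towards labelled elt-2 RNAi. F29G6.3, now hpo-34 and named for hypersensitivity to a pore-forming toxin, was at 232 (labelled elt-2 RNAi) and 135 RPKM (control RNAi) in hypoxia, against 36.6 (labelled elt-2 RNAi) and 62.0 RPKM (control RNAi) in normoxia. C50B8.5 was at 17.5 (labelled elt-2 RNAi) and 9.95 RPKM (control RNAi) in hypoxia, against 1.61 (labelled elt-2 RNAi) and 3.44 RPKM (control RNAi) in normoxia. C04G6.5, now txt-9, was at 35.1 (labelled elt-2 RNAi) and 23.1 RPKM (control RNAi) in hypoxia, against 3.02 (labelled elt-2 RNAi) and 5.74 RPKM (control RNAi) in normoxia. In each of these 3 genes labelled elt-2 RNAi was the higher food in hypoxia and the lower one in normoxia, and both RNAi ratios of hpo-34 and of C50B8.5 lay beyond 0.7 in opposite directions. The next widest differences were 0.98 for W05H9.1 (now lro-1) and 0.90 for K08D8.6. lro-1 was at 437 (labelled elt-2 RNAi) and 327 RPKM (control RNAi) in hypoxia, against 63.8 (labelled elt-2 RNAi) and 94.6 RPKM (control RNAi) in normoxia, and K08D8.6 was at 201 (labelled elt-2 RNAi) and 118.5 RPKM (control RNAi) in hypoxia, against 32.7 (labelled elt-2 RNAi) and 36.3 RPKM (control RNAi) in normoxia.

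The members with the smallest difference, apart from nadk-1, were D1086.10, W01C8.5, T11B7.2 and C04C11.1. W01C8.5 was at 16.4 (labelled elt-2 RNAi) and 27.1 RPKM (control RNAi) in hypoxia, against 6.78 (labelled elt-2 RNAi) and 11.6 RPKM (control RNAi) in normoxia, the control food being higher at both oxygen levels. T11B7.2 was at 22.8 (labelled elt-2 RNAi) and 19.5 RPKM (control RNAi) in hypoxia, against 6.84 (labelled elt-2 RNAi) and 5.68 RPKM (control RNAi) in normoxia. C04C11.1 had log2 ratios of 1.39 (labelled elt-2 RNAi) and 1.37 (control RNAi) at a low level. Within the RNAi window, 73 members had both RNAi ratios within 0.3 of 0, and 14 had at least 1 beyond 0.7 in size. The level was lower under labelled elt-2 RNAi at both oxygen levels in 68 members, higher at both in 46 and of opposite sign in 45. These counts were not made over all compared loci. The median RNAi ratio was -0.02 in hypoxia and -0.07 in normoxia over the members, against 0.08 in hypoxia and 0.06 in normoxia over all compared loci. The window is part of the rule. Without it, 271 loci with a sequence name were at least 2-fold higher in hypoxia under both foods, so 112 of them lay outside it.

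The limit cut through a dense range of ratios. The members just inside it, by the lower of their 2 ratios, were H06I04.6 at 1.51 (labelled elt-2 RNAi) and 1.00 (control RNAi), 1 locus of ZC262.5 at 1.01 (labelled elt-2 RNAi) and 1.23 (control RNAi), pals-23, lron-7 and K09H9.5 at 1.18 (labelled elt-2 RNAi) and 1.01 (control RNAi). Just outside were EEED8.2 at 1.02 (labelled elt-2 RNAi) and 0.99 (control RNAi), Y17G9B.2 at 1.06 (labelled elt-2 RNAi) and 0.99 (control RNAi), K02A11.3 (now endu-1) at 1.12 (labelled elt-2 RNAi) and 0.99 (control RNAi), F35E12.4 at 0.99 (labelled elt-2 RNAi) and 1.13 (control RNAi) and ZK593.1 (now pyk-2, a pyruvate kinase) at 0.98 (labelled elt-2 RNAi) and 1.09 (control RNAi). The lower ratios of these genes, inside and outside, all lay very near the limit.

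The authors' deposited tables hold their own test of 1 library against another. In the authors' deposited tables, 11 members were called higher in hypoxia under labelled elt-2 RNAi, 9 under control RNAi and 6 under both, and 145 were called under neither. The rule used the same contrasts, so these counts describe the members only. Of all compared loci, 0.787% were called higher under labelled elt-2 RNAi and 0.475% under control RNAi in the same deposited tables. Calls under both foods and under neither were not counted over all compared loci. The 6 called under both in the authors' deposited tables were F53A9.1, nssp-85, Y22D7AL.15, lro-1, serp-1.1 and C41G11.1. C41G11.1 was at 264 (labelled elt-2 RNAi) and 319 RPKM (control RNAi) in hypoxia, against 73.8 (labelled elt-2 RNAi) and 93.8 RPKM (control RNAi) in normoxia.

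Position on the chromosomes was not used by the rule. Of the 159 members, 42 lay on the X chromosome, 32 on IV, 31 on V, 21 on II, 18 on III and 15 on I. The X share was 26.4%, against 11.5% of all compared loci with a sequence name and 12.4% of all compared loci. It was 32.1% (42 of 131) among genes with a descriptive name that met the same limits. It was also high, at 30.99% (22 of 71), among loci with a sequence name that met the mirrored rule and were lower in hypoxia. The X share was thus above that of compared loci in each of the 3 sets. Each set was selected on a change in hypoxia, in either direction, and also on small RNAi ratios. Without the limit on RNAi ratios, the X share was 22.9% (108 of 472) among compared loci at least 2-fold higher in hypoxia under both foods. These 472 loci include the members and the descriptively named set, and the loci outside the RNAi window were not counted apart. Among compared loci that are not members, 14.1% on X and 6.32% on the autosomes were at least 2-fold higher in hypoxia under labelled elt-2 RNAi, and 9.76% on X and 5.84% on the autosomes under control RNAi. Their median ratios were -0.09 on X and -0.06 on the autosomes under each food. X loci also had lower levels, with a median of 15.9 RPKM against 49.1 RPKM on the autosomes, and the part of level in the X share was not tested. On X, the members had median ratios of 1.56 (labelled elt-2 RNAi) and 1.40 (control RNAi), and on the autosomes 1.48 (labelled elt-2 RNAi) and 1.40 (control RNAi).

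**Figure D4:**
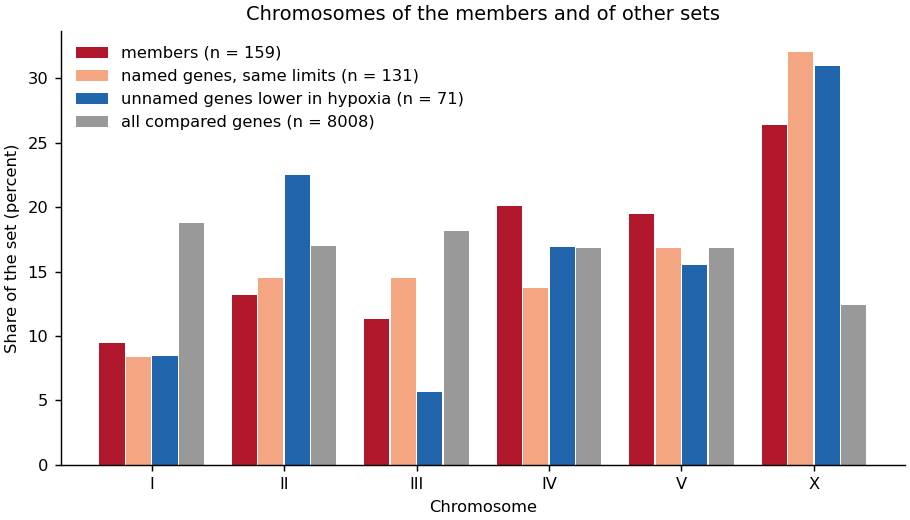
Share of loci on each chromosome, in percent of each set, for the members, genes with a descriptive name that met the same limits, loci with a sequence name that were lower in hypoxia by the mirrored rule, and all compared loci. On X the 3 selected sets stand at 26.4%, 32.1% and 30.99%, against 12.4% of all compared loci.

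Members had short coding sequences. By the Ensembl gene models, matched by name and without the stop codon, their median coding length was 654 bases (156 with a model), against 1003.5 bases for all compared loci with a sequence name. It was 957 bases for the genes with a descriptive name that met the same limits and 805.5 bases for the mirrored set. A coding length under 450 bases, which is under 150 codons, was found in 31.4% of members (49). It was found in 14.4% of compared loci with a sequence name, in 17.1% of the descriptively named set and in 10.3% of the mirrored set. Over all 472 compared loci at least 2-fold higher in both hypoxia comparisons the share was 26.9% (120 of 446 with a coding model). These 472 loci include the members (49 of 156) and the descriptively named set (20 of 117), so the 26.9% is not a separate background. The share among raised loci outside the RNAi window was not counted, so short coding length is not shown to be particular to the members. The shortest coding sequence of a member had 162 bases (ZC262.5) and the longest 5403 bases (hpo-34). The median number of exons was 4.5, against 5 for compared loci with a sequence name. The 49 short members had median ratios of 1.44 (labelled elt-2 RNAi) and 1.48 (control RNAi), and the other 107 had 1.51 (labelled elt-2 RNAi) and 1.40 (control RNAi). Levels per length differed more, with a median of 48.3 RPKM for the short members and 17.1 RPKM for the others. The limit of 450 bases and the splits by X and by length were chosen after the values had been seen.

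**Figure D5:**
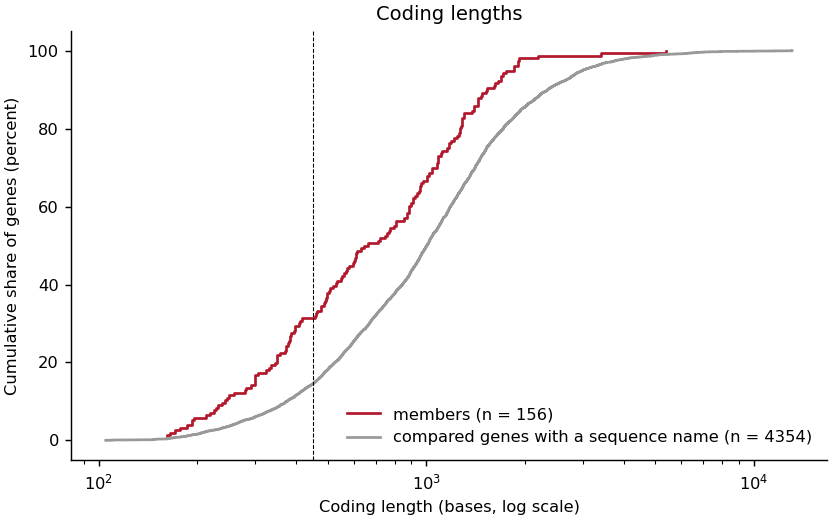
Cumulative share of genes (percent) by coding length in bases, on a log axis, for the 156 members with a coding model and 4354 compared loci with a sequence name, with a dashed line at 450 bases. The line of the members lies left of that of the compared loci over most of the range, and crosses 450 bases at 31.4% against 14.4%.

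A few members lay side by side. Coordinates are given as in the authors' tables, on ce10. Within 10 kb of each other were 10 pairs of member loci, with 18 names. These pairs include that of ZC262.5 with its own other locus. Such pairs were not counted in any other set of loci, so the count has no background. In a row stood 3 genes on the plus strand of chromosome IV, C49A9.6 (6210989 to 6213080), C49A9.5 (6213811 to 6216353) and C49A9.9 (6217361 to 6219440), with no other locus between them. C49A9.6 was at 24.7 (labelled elt-2 RNAi) and 15.8 RPKM (control RNAi) in hypoxia, against 6.49 (labelled elt-2 RNAi) and 5.30 RPKM (control RNAi) in normoxia. C49A9.5 was at 8.27 (labelled elt-2 RNAi) and 7.89 RPKM (control RNAi) in hypoxia, against 1.62 (labelled elt-2 RNAi) and 2.43 RPKM (control RNAi) in normoxia. C49A9.9 was at 30.2 (labelled elt-2 RNAi) and 18.997 RPKM (control RNAi) in hypoxia, against 8.24 (labelled elt-2 RNAi) and 5.37 RPKM (control RNAi) in normoxia. All 3 were low in normoxia and had log2 ratios within a narrow range, the highest 1.82 (C49A9.5, labelled elt-2 RNAi) and the lowest 1.37 (C49A9.5, control RNAi). On X, C53B7.3 (6844715 to 6845936) and C53B7.2 (6846193 to 6847507) follow each other on the plus strand. C53B7.3 was at 185 (labelled elt-2 RNAi) and 188 RPKM (control RNAi) in hypoxia, against 64.7 (labelled elt-2 RNAi) and 73.7 RPKM (control RNAi) in normoxia. C53B7.2 was at 252 (labelled elt-2 RNAi) and 277 RPKM (control RNAi) in hypoxia, against 76.0 (labelled elt-2 RNAi) and 78.9 RPKM (control RNAi) in normoxia. In this pair each hypoxia value was more than 2 times each normoxia value, also across the genes.

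On chromosome II, nspe-1 (12620482 to 12620819) and Y38E10A.14 (12623127 to 12624479) lie on the minus strand with no locus between. Y38E10A.14 was at 152 (labelled elt-2 RNAi) and 184 RPKM (control RNAi) in hypoxia, against 37.9 (labelled elt-2 RNAi) and 38.8 RPKM (control RNAi) in normoxia. On chromosome IV, nssp-41 (7081503 to 7082257, plus strand) and Y43B11AR.3 (7082265 to 7083603, minus strand) end against each other. nssp-41 was at 259.6 (labelled elt-2 RNAi) and 300.3 RPKM (control RNAi) in hypoxia, against 108 (labelled elt-2 RNAi) and 110.2 RPKM (control RNAi) in normoxia, and Y43B11AR.3 was at 40.0 (labelled elt-2 RNAi) and 45.5 RPKM (control RNAi) in hypoxia, against 18.5 (labelled elt-2 RNAi) and 18.9 RPKM (control RNAi) in normoxia. The first was the more abundant by several times in each library. The pair Y54G2A.52 (2797059 to 2798474) and Y54G2A.32 (2803587 to 2804784) on chromosome IV, both among the 10 highest ratios, has 2 loci between. On chromosome V, C50F4.9 had log2 ratios of 1.42 (labelled elt-2 RNAi) and 1.32 (control RNAi) and its neighbour C50F4.1 of 1.26 (labelled elt-2 RNAi) and 1.43 (control RNAi). On chromosome III, F09F7.5 had ratios of 1.41 (labelled elt-2 RNAi) and 1.27 (control RNAi) beside nmad-1, with 1 locus between, and cbp-3 and cbp-2 have 2 loci between. The 2 loci of ZC262.5, both on the minus strand of chromosome III, start at 8342152 and 8350347. One was at 134 (labelled elt-2 RNAi) and 140.2 RPKM (control RNAi) in hypoxia, against 64.1 (labelled elt-2 RNAi) and 49.4 RPKM (control RNAi) in normoxia, and the other at 119.7 (labelled elt-2 RNAi) and 146 RPKM (control RNAi) in hypoxia, against 59.1 (labelled elt-2 RNAi) and 61.8 RPKM (control RNAi) in normoxia. They carry 1 name and 1 gene model, so the split of reads between them is uncertain.

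Loci next to members were compared as well. The nearest compared non-member on each side gave 300 loci. Their median ratios were 0.01 (labelled elt-2 RNAi) and 0.02 (control RNAi), near those of all compared non-members at -0.07 under each food. At least 2-fold higher levels in hypoxia were found in 12.33% of these neighbours under labelled elt-2 RNAi and in 10.3% under control RNAi, against 7.26% (labelled elt-2 RNAi) and 6.32% (control RNAi) of all non-members.

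Overlapping loci limit some of these values, since the sources used here do not say whether reads were counted by strand. A locus on the opposite strand overlapped 22 members, and a locus on the same strand 3. By the log2 ratio of (RPKM + 1), 0 of the 22 opposite partners reached 1 under both foods, and 21 stayed under 1 under both. Some partners were under 1 RPKM in every library, where that ratio cannot reach 1. A mean level above that of the member was found in 8 partners. C32F10.4 overlaps lin-35, which was at 41.1 (labelled elt-2 RNAi) and 38.8 RPKM (control RNAi) in hypoxia, against 44.5 (labelled elt-2 RNAi) and 41.6 RPKM (control RNAi) in normoxia. txt-9 overlaps pld-1, which was at 35.0 (labelled elt-2 RNAi) and 29.5 RPKM (control RNAi) in hypoxia, against 33.3 (labelled elt-2 RNAi) and 31.05 RPKM (control RNAi) in normoxia. The log2 ratios of lin-35 were -0.11 (labelled elt-2 RNAi) and -0.10 (control RNAi), and those of pld-1 were 0.07 (labelled elt-2 RNAi) and -0.07 (control RNAi), far below those of the members they overlap. C37C3.10 and Y102A11A.5 also overlap an opposite locus, C53C11.4, listed at 0 in all 4 libraries, and Y102A11A.2, at 1.05 RPKM or less in each. Among the members named above, klo-1, tmem-189, mab-31, clik-1, spig-16 and C41G11.1 have such a partner too. On the same strand, R08C7.12 overlaps R08C7.1, which was at 5.83 (labelled elt-2 RNAi) and 5.94 RPKM (control RNAi) in hypoxia and listed at 0 in both normoxia libraries. The values of R08C7.12 itself, 8.97 (labelled elt-2 RNAi) and 10.54 RPKM (control RNAi) in hypoxia, against 3.89 (labelled elt-2 RNAi) and 4.27 RPKM (control RNAi) in normoxia, are uncertain for that reason. The other same-strand cases, K07C11.7 and F26D11.12, overlap a locus at 0.424 RPKM or less in each library.

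For context, a list of 15 genes of the HIF-1 pathway and its known targets was set beside the members, all of them at a mean of 1 RPKM or more. It holds aldo-1, deposited as T05D4.1, which the rule left out by name. At least 2-fold higher in hypoxia were 9 of the 15 under labelled elt-2 RNAi and 8 under control RNAi, while 1 under labelled elt-2 RNAi and 2 under control RNAi were at least 2-fold lower. The list mixes regulators, such as egl-9, hif-1 and vhl-1, with targets. The direction in which HIF-1 acts on each target was not used, so these counts do not measure HIF-1 activity. ftn-1, for one, was counted as higher under both foods by its ratios alone. The median ratios of the list were 1.32 (labelled elt-2 RNAi) and 1.16 (control RNAi), against -0.01 (labelled elt-2 RNAi) and 0.01 (control RNAi) over 10655 loci at that level. hsp-12.3, of the small heat shock proteins, was at 107.9 (labelled elt-2 RNAi) and 107.7 RPKM (control RNAi) in hypoxia, against 1.73 (labelled elt-2 RNAi) and 4.70 RPKM (control RNAi) in normoxia. The prolyl 4-hydroxylase gene phy-2 was at 21.99 (labelled elt-2 RNAi) and 23.8 RPKM (control RNAi) in hypoxia, against 6.09 (labelled elt-2 RNAi) and 7.29 RPKM (control RNAi) in normoxia. The sulfide oxidation gene sqrd-1 went the other way, with log2 ratios of -1.46 (labelled elt-2 RNAi) and -1.57 (control RNAi). So did rhy-1, with -0.82 (labelled elt-2 RNAi) and -1.22 (control RNAi). The ratios of nhr-57 were small, at 0.07 (labelled elt-2 RNAi) and 0.39 (control RNAi). Those of cysl-2 were 1.09 (labelled elt-2 RNAi) and 0.29 (control RNAi), so the genes of the list did not move as 1 group.

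Marker genes of cell types moved between the same libraries, and their part in the members' ratios was not tested. The 8 intestinal markers summed to 1304 (labelled elt-2 RNAi) and 2789 RPKM (control RNAi) in hypoxia, against 606 (labelled elt-2 RNAi) and 1257 RPKM (control RNAi) in normoxia, with median ratios of 1.06 (labelled elt-2 RNAi) and 1.07 (control RNAi). Their sum under labelled elt-2 RNAi was thus about 0.5 times that under control RNAi at both oxygen levels. The largest part of each sum was asp-1, and mtl-1 was at 113 (labelled elt-2 RNAi) and 434 RPKM (control RNAi) in hypoxia. Since ifb-2, act-5 and pept-1 were higher under labelled elt-2 RNAi in hypoxia, the sum does not stand for all 8 markers. The 7 body wall muscle markers compared, of 8 listed, summed to 1456 to 1536 RPKM in hypoxia, against 605 to 657 RPKM in normoxia. Intestine and muscle sums were both about 2 times higher in hypoxia than in normoxia under each food. The largest part of the muscle sum was mlc-2, at 836 (labelled elt-2 RNAi) and 890 RPKM (control RNAi) in hypoxia. At least 2-fold higher were 4 of the 7 muscle markers under labelled elt-2 RNAi and 3 under control RNAi. myo-3 had log2 ratios of 0.22 (labelled elt-2 RNAi) and -0.0003 (control RNAi), so the muscle sum does not stand for all 7. The 6 embryo markers, of 9, summed to 96.5 to 153.6 RPKM in hypoxia, against 237 to 378 RPKM in normoxia, and med-1 was listed at 0 in all 4 libraries. The 10 germline and oocyte markers, of 10, summed to 3124 to 3882 RPKM in hypoxia, against 4572 to 5156 RPKM in normoxia. Embryo and germline sums were thus lower in hypoxia under each food. The 8 neuron markers, of 8, summed to 289.7 to 292 RPKM in hypoxia, against 248 to 259 RPKM in normoxia. The neuron sum was mostly snb-1, at 179 (labelled elt-2 RNAi) and 181 RPKM (control RNAi) in hypoxia. Single neuron markers went both ways, with log2 ratios of 1.49 (labelled elt-2 RNAi) and 1.16 (control RNAi) for unc-64. Those of unc-119 were -0.76 (labelled elt-2 RNAi) and -0.80 (control RNAi). The 5 epidermis markers, of 7, summed to 145 (labelled elt-2 RNAi) and 191 RPKM (control RNAi) in hypoxia, against 164 (labelled elt-2 RNAi) and 169.6 RPKM (control RNAi) in normoxia. The epidermis sum was thus lower in hypoxia under labelled elt-2 RNAi and higher under control RNAi. It was mostly col-19, while the median log2 ratios of these markers were 0.38 (labelled elt-2 RNAi) and 0.47 (control RNAi), with 2 markers at least 2-fold higher under each food. The 2 pharynx markers, of 5, summed to 15.99 to 19.6 RPKM in hypoxia, against 22.1 to 25.7 RPKM in normoxia, and the 2 sperm markers, of 7, to 28.0 to 37.8 RPKM in hypoxia, against 15.6 to 16.2 RPKM in normoxia. The sperm sum was mostly ssp-10, at 26.2 (labelled elt-2 RNAi) and 36.4 RPKM (control RNAi) in hypoxia, against 14.7 (labelled elt-2 RNAi) and 14.4 RPKM (control RNAi) in normoxia. The other, spe-41, had log2 ratios of 0.16 (labelled elt-2 RNAi) and 0.15 (control RNAi), and spe-9, spe-11, gsp-3 and gsp-4 averaged 0.156 RPKM or less.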

How the data were processed

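Paired-end reads of 100 bp came from 4 libraries, 1 per group, grouped by their titles. The 6 tables deposited by the authors hold RPKM per gene, per the file headers, for 2 libraries each, and 0 values differed between tables that held the same library. The p-value and FDR-adjusted p-value columns were deposited by the authors too, per the file headers, and are used only through the authors' calls. Named without roles in the submitters' processing notes are Cufflinks 2.1.1, TopHat2 2.0.8b and the build ce10. The sources used here give neither the annotation nor whether strand was used. 0 columns of per-sample values were left unused.

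Loci were compared where they named 1 gene (334 did not), had no failed status in any table (8 had one) and had a mean of at least 5 RPKM. Ratios are log2 of (RPKM + 1), which understates the change of low genes, and no test was made. Of the members, 156 had the status OK in every table. The members and lists were chosen with earlier results of these data known. Members named in the text are the 10 highest by ratio and by level, the 5 with the widest and the 5 with the narrowest difference between foods, those next to the limit, those within 10 kb of another member and those with a current symbol, with a few others chosen after their values were seen (Y102A11A.5, Y22D7AL.15, C32F10.4, C41G11.1, R08C7.12, K07C11.7, F26D11.12). Names, biotypes and coding lengths come from Ensembl release 115 and RefSeq tables of WBcel235, matched by name, and listed genes were matched by deposited name, current symbol or RefSeq accession. Roles of genes are background knowledge. Coding gene models covered 98.1% of members and 89.3% of the descriptively named set. Alternatives were pseudocounts of 0.1 and 5, other limits on the mean, centred ratios, a 4-fold limit, other RNAi windows, and other filters on loci. Python 3.11.15, pandas 2.3.3, numpy 2.4.6 and matplotlib 3.10.9 were used.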

Additional observations from a re-analysis of the deposited data

How the results depend on the processing

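The rule itself fixes the direction of the medians under each alternative. Medians have no replicate spread, so any move of 0.005 or more is given. Under labelled elt-2 RNAi, the median log2 ratio of the set chosen was 1.49 with a pseudocount of 0.1, 1.47 with a pseudocount of 5, 1.42 with no limit on the mean, 1.45 with a mean of at least 1, 1.48 with a mean of at least 10, 1.47 with centred ratios, 3.08 with a 4-fold limit, 1.46 with an RNAi window of 0.5, 1.71 with no RNAi window, 1.48 with the status OK only and 1.48 with loci of several genes kept. Under control RNAi, it was 1.45 with a pseudocount of 0.1, 1.36 with a pseudocount of 5, 1.38 with no limit on the mean, 1.39 with a mean of at least 1, 2.95 with a 4-fold limit, 1.42 with an RNAi window of 0.5 and 1.48 with no RNAi window, and moved by less with the others. The share of compared loci at least 2-fold higher in hypoxia under labelled elt-2 RNAi was 10.1% with a pseudocount of 0.1, 6.32% with a pseudocount of 5, 9.87% with a mean of at least 1, 8.02% with a mean of at least 10 and 9.97% with centred ratios. Under control RNAi it was 9.04% with a pseudocount of 0.1, 5.49% with a pseudocount of 5, 9.48% with a mean of at least 1, 6.99% with a mean of at least 10 and 9.14% with centred ratios. The number of members moved by more than 1.5 times with no limit on the mean (240), with a 4-fold limit (17) and with no RNAi window (271). It was 174 with a pseudocount of 0.1, of which 151 were among the 159, 117 with a pseudocount of 5 (101 shared), 234 with a mean of at least 1, 121 with a mean of at least 10, 185 with centred ratios (154 shared), 107 with a window of 0.5, 156 with the status OK only and 161 with loci of several genes kept. No paired analysis was possible because each group has 1 library and the labels give no replicate numbers, and for the same reason no replicate could be left out. Promoter motifs, with a shorter window as alternative, and protein identity between members were not run. Absolute depth is unknown, so counting error has no interval, and it weighs most on the members with normoxia values under 1 RPKM.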
